A study of Mus musculus with 31 samples.

Results

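The genes described here encode the factors that choose and carry out splicing of nuclear pre-mRNA: the SR proteins (Srsf genes), the hnRNP proteins (Hnrnp genes), the Luc7-like proteins (Luc7l, Luc7l2 and Luc7l3), the CDC2-like kinases (Clk1 to Clk4) and the SF3A and SF3B subunits (Sf3a and Sf3b genes). They were taken by symbol from the 20436 gene symbols of the count tables, with a mean of at least 1 CPM, a count scaled to its library's total, in wild-type mRNA required. All 47 matching symbols met that level, the lowest at 13.9 CPM. They comprise 11 SR, 20 hnRNP, 3 Luc7l, 4 CLK and 9 SF3 genes, and all 47 passed the low-count filter in mRNA, in footprints and in translational efficiency, so none was left out of a test.

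The libraries came from dissected cortex of mice at postnatal days 29 to 34, of 4 genotypes: wild type (WT), mice deficient in Fmr1 (labelled FXS, the genotype that models fragile X syndrome), mice deficient in Rps6kb1 (labelled S6K1, after the kinase the gene encodes) and mice deficient in both genes (labelled DKO). The labels name the deficient genes and give no allele, strain or sex, and they do not say whether each library is 1 animal, so the p-values measure the spread between these libraries. Polyadenylated mRNA was sequenced in 16 libraries, 4 per genotype, in batches 5 to 8 that each hold every genotype once. Ribosome-protected fragments (footprints) were sequenced in 15 libraries, 4 WT, 5 FXS, 3 S6K1 and 3 DKO, in batches 1 to 4. WT is not in batch 1 and DKO is not in batch 2, so batches 3 and 4 are those that hold both.

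SR proteins bind exonic enhancers through RNA recognition motifs and recruit the splicing machinery through a domain rich in arginine and serine, and CLK kinases phosphorylate that domain. hnRNP proteins coat nascent RNA and often act against exon inclusion. Luc7-like proteins belong to the U1 snRNP and help choose the 5′ splice site, and the SF3A and SF3B complexes of the U2 snRNP recognise the branch point. Fmr1 encodes FMRP, an RNA-binding protein of neurons that represses translation, and S6K1 is a kinase downstream of mTORC1. Many SR, hnRNP and CLK genes are known to produce transcripts with retained introns or poison exons that are not translated into the full protein, and a count per gene does not separate those from the coding transcripts.

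The 150 bases upstream of the RefSeq start of 7 genes are shown because these are the genes called lower or higher in DKO mRNA below that have an entry in the RefSeq table; the other is Sf3b4. GGGCGG or its complement CCGCCC, the core of the GC box bound by Sp1-type factors, is in capitals, with overlapping copies run together.
Luc7l3: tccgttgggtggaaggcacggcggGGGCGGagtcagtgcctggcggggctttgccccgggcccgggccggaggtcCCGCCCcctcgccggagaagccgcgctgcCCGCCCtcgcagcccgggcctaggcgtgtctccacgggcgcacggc
Sf3b1: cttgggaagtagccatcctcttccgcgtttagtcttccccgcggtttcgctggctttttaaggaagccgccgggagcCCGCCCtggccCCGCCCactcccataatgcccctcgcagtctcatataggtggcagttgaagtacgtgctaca
Hnrnpu: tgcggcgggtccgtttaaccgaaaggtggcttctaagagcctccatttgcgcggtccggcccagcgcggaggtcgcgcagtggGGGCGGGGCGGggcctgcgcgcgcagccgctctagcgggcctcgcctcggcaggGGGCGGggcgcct
Luc7l2: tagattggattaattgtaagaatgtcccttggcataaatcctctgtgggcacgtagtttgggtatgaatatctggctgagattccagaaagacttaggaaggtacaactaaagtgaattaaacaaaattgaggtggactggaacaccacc
Srsf11: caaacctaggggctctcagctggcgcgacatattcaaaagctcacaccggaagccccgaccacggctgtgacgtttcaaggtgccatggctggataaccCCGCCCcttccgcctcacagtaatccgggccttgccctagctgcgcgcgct
Hnrnpa0: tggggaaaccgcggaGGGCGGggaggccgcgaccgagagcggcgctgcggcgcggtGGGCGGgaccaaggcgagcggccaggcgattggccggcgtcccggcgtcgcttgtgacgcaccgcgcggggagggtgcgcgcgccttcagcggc
Sf3a2: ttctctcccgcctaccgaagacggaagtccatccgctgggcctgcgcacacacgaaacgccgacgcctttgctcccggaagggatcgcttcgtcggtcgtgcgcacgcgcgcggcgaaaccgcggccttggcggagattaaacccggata
In GRCm38.p6 coordinates these stretches lie at chr11:94321964-94322113 (minus strand), chr1:55027479-55027628 (minus strand), chr1:178337816-178337965 (minus strand), chr6:38555573-38555722 (plus strand), chr3:158036607-158036756 (minus strand), chr13:58128557-58128706 (minus strand) and chr10:80798585-80798734 (plus strand). Luc7l3, Sf3b1, Hnrnpu, Luc7l2 and Srsf11, whose mRNA was lower in DKO, hold 3, 2, 3, 0 and 1 copies (Srsf11 has 2 starts with 1 copy each, and the first is shown). Hnrnpa0 and Sf3a2, whose mRNA was higher, hold 2 and 0, and among the lower genes only Luc7l2 also holds 0. The stretches of Luc7l2, Hnrnpu and Luc7l3 lie wholly inside the RefSeq spans of these genes (chr6:38551334-38609953, chr1:178321108-178338891 and chr11:94291073-94322329). They are therefore not the bases before the outermost start, and the copy numbers carry that limit. Over the 300-base windows of the RefSeq table, which covers 41 of the 47 genes with 54 starts, GGGCGG or CCGCCC was in 77.8% of starts, against 35.7% of the 32851 starts of all genes. CCGGAAG or CTTCCGG, an ETS-type motif, was in 33.3% of the starts against 8.86%, and CCAAT or ATTGG in 48.1% against 37.4%. These are matches of letters and not measured binding.

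Ribosomal protein mRNAs begin with a C followed by a run of pyrimidines, a feature that makes their translation sensitive to mTORC1. A C at the first base followed by an unbroken run to at least 5 pyrimidines was found at the RefSeq start of 2 of the 54 starts, 3.7%, against 2.51% of all starts. The 2 are shown because they met that rule, with 10 bases before and 20 from the start and the run in capitals.
Hnrnpa0: cttcagcggcCTCTTTgtgtggtgtcccga
Srsf5: caggacgtccCTTCCattttgtgcaacgtc

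Library totals ran from 12.1 to 17.3 M counts for mRNA and from 16.6 to 34.9 M for footprints. Fmr1 mRNA was 55.6 to 77.6 CPM in WT, 65.8 to 82.6 in S6K1, 13 to 22.1 in FXS and 10.6 to 21.6 in DKO. Rps6kb1 footprints were 26.1 to 31.7 CPM in WT, 29.4 to 36.3 in FXS, 7.62 to 12.8 in S6K1 and 11.3 to 12 in DKO. Rps6kb1 mRNA did not separate the groups in the same way: 39.5 to 55.5 CPM in WT and 41 to 53.9 in FXS overlapped S6K1 at 28.2 to 43.7, and WT overlapped DKO at 28.5 to 39.6. The 8 neuronal markers were all present and summed to 5270 to 6487 CPM in WT mRNA and 5814 to 7361 in DKO mRNA, with 2 of 8 called higher in DKO. The 8 oligodendrocyte markers summed to 2662 to 3790 CPM in WT footprints and 1827 to 2537 in DKO footprints, with 2 of 8 called lower. In mRNA the same markers overlapped, at 1843 to 2924 CPM in WT and 1767 to 3168 in DKO, with 1 called higher and 0 lower. Markers of choroid plexus reached 581 CPM in 1 WT mRNA library, with a lowest WT value of 4.75 CPM. The part of these differences in the results below was not tested. In bulk cortex, fewer cells of a type and less RNA per cell cannot be told apart.

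In mRNA, 5 of the 47 splicing factor genes were lower and 3 were higher in DKO than in WT. A gene is called here at a Benjamini-Hochberg adjusted p under 0.05 in edgeR's quasi-likelihood test over all 14215 genes, with batch in the model. The 8 are 17% of the members, beside 5.23% of all genes (2.06% lower and 3.17% higher). The members were chosen with earlier results of these data known, so the 2 shares are a description. The lower genes were Luc7l3 and Luc7l2 of the U1 snRNP, the branch-point factor Sf3b1, Hnrnpu and the SR protein gene Srsf11. The higher genes were Hnrnpa0 and the U2 snRNP subunit genes Sf3a2 and Sf3b4. The median log2 fold change of the 47 genes was -0.05, beside -0.00 for all genes, with 18 above and 29 below 0.

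Luc7l3 had the smallest adjusted p among the members. In libraries ordered by batch from 5 to 8, its mRNA was 196, 165, 162 and 164 CPM in WT and 163, 117, 111 and 114 CPM in DKO. The batch 5 library was the highest of both groups, and the DKO library of that batch lay inside the WT range while the other DKO libraries lay below all WT libraries. The fitted log2 fold change was -0.46 ± 0.0657 (SE, adjusted p = 0.0019). Means ± SD (n = 4 each) were 172 ± 16.2 CPM in WT and 126 ± 24.8 in DKO, against 148 ± 18.9 in FXS and 143 ± 16.8 in S6K1, so both single mutants lay between WT and DKO within overlapping ranges (126 to 172 CPM in FXS and 132 to 168 in S6K1). The gene lies at chr11:94291073-94322329 in RefSeq's GRCm38.p6 annotation, 7.75 Mb from Rps6kb1, and its mRNA log2 fold change in S6K1 was -0.26. Srsf1, 1.5 Mb from Rps6kb1, had 0.04 in S6K1 and 0.01 in DKO. The part of DNA linked to Rps6kb1 in the Luc7l3 values was not tested, and 1 other gene does not settle it.

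Luc7l2 mRNA was 122, 112, 101 and 119 CPM in WT and 107, 90.8, 82.9 and 87.9 CPM in DKO, and 3 of the 4 DKO libraries lay below all WT libraries. Its log2 fold change was -0.30 ± 0.0665 (SE, adjusted p = 0.0132). Luc7l, the third gene of the family, ran lower as well but was not called: 46.6, 39.8, 39.6 and 33.7 CPM in WT, 43.9, 30.2, 35.4 and 30.8 in DKO, and a log2 fold change of -0.19 ± 0.086 (SE, adjusted p = 0.183). The 2 groups overlapped for Luc7l, with DKO below WT in each of the 4 batches.

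Among the U2 snRNP genes, Sf3b1, which encodes the large HEAT-repeat subunit that contacts the branch site, had 440.3, 355, 253 and 379 CPM in WT and 354, 250.4, 235 and 254 CPM in DKO. The WT library of batch 7 lay among the DKO libraries, and the batch 5 library was the highest of both groups. The fitted log2 fold change was -0.38 ± 0.0822 (SE, adjusted p = 0.0122). Sf3a2 and Sf3b4, which encode other subunits of SF3A and SF3B, went the other way. Sf3a2 mRNA was 44.5, 54.8, 44.1 and 55.6 CPM in WT and 50.4, 70.7, 65.8 and 58.3 CPM in DKO, with overlapping groups and a log2 fold change of 0.30 ± 0.081 (SE, adjusted p = 0.0344). Sf3b4 mRNA was 58.7, 66.3, 60.9 and 67.3 CPM in WT and 67.6, 84.1, 75.1 and 72 CPM in DKO, with every DKO library above every WT library and a log2 fold change of 0.24 ± 0.0685 (SE, adjusted p = 0.046). Of the 9 SF3 genes 2 rose and 1 fell, and the other 6 ran from -0.22 for Sf3b6 to 0.29 for Sf3b5.

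Of the 20 hnRNP genes 1 fell and 1 rose. Hnrnpu, whose protein SAF-A binds chromatin-associated RNA, had 542, 531, 521 and 514 CPM in WT and 452, 464, 411 and 400.2 CPM in DKO. All 4 DKO libraries lay below all 4 WT libraries, with a fitted log2 fold change of -0.29 ± 0.0628 (SE, adjusted p = 0.0128). Hnrnpa0, a protein that binds AU-rich elements, had 57, 62.3, 59.2 and 70.6 CPM in WT and 70.6, 90.4, 87.7 and 72.1 CPM in DKO. The lowest DKO library was at the level of the highest WT library, 70.6 CPM after rounding, with a fitted log2 fold change of 0.36 ± 0.0876 (SE, adjusted p = 0.0195). Hnrnpd, the AU-rich element binding protein AUF1, missed the threshold at -0.22 ± 0.0654 (SE, adjusted p = 0.0503), with 163, 186, 190.1 and 149 CPM in WT and 135, 161, 145 and 149 in DKO, overlapping groups.

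Of the 11 SR genes 1 was called. Srsf11 mRNA was 155, 112, 122 and 136 CPM in WT and 123, 105, 101 and 87.1 CPM in DKO, with 3 of 4 DKO libraries below all WT libraries and a log2 fold change of -0.33 ± 0.0803 (SE, adjusted p = 0.0201). Srsf6 was next at -0.25 ± 0.0785 (SE, adjusted p = 0.0672) and Srsf12 was the highest of the family at 0.19 ± 0.112 (SE, adjusted p = 0.339). No CLK gene was called. Clk2 had 38.2, 38.8, 36.1 and 41.1 CPM in WT and 34.9, 33.3, 34.4 and 33.2 CPM in DKO, groups that did not overlap, yet its log2 fold change of -0.18 ± 0.0825 (SE, adjusted p = 0.189) did not pass the test over all genes. Every DKO library lay on one side of every WT library in 5 of the 47 genes (Hnrnpa0 and Sf3b4 above, Clk2, Hnrnph3 and Hnrnpu below), beside 6.15% of all genes.

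**Figure D1:**
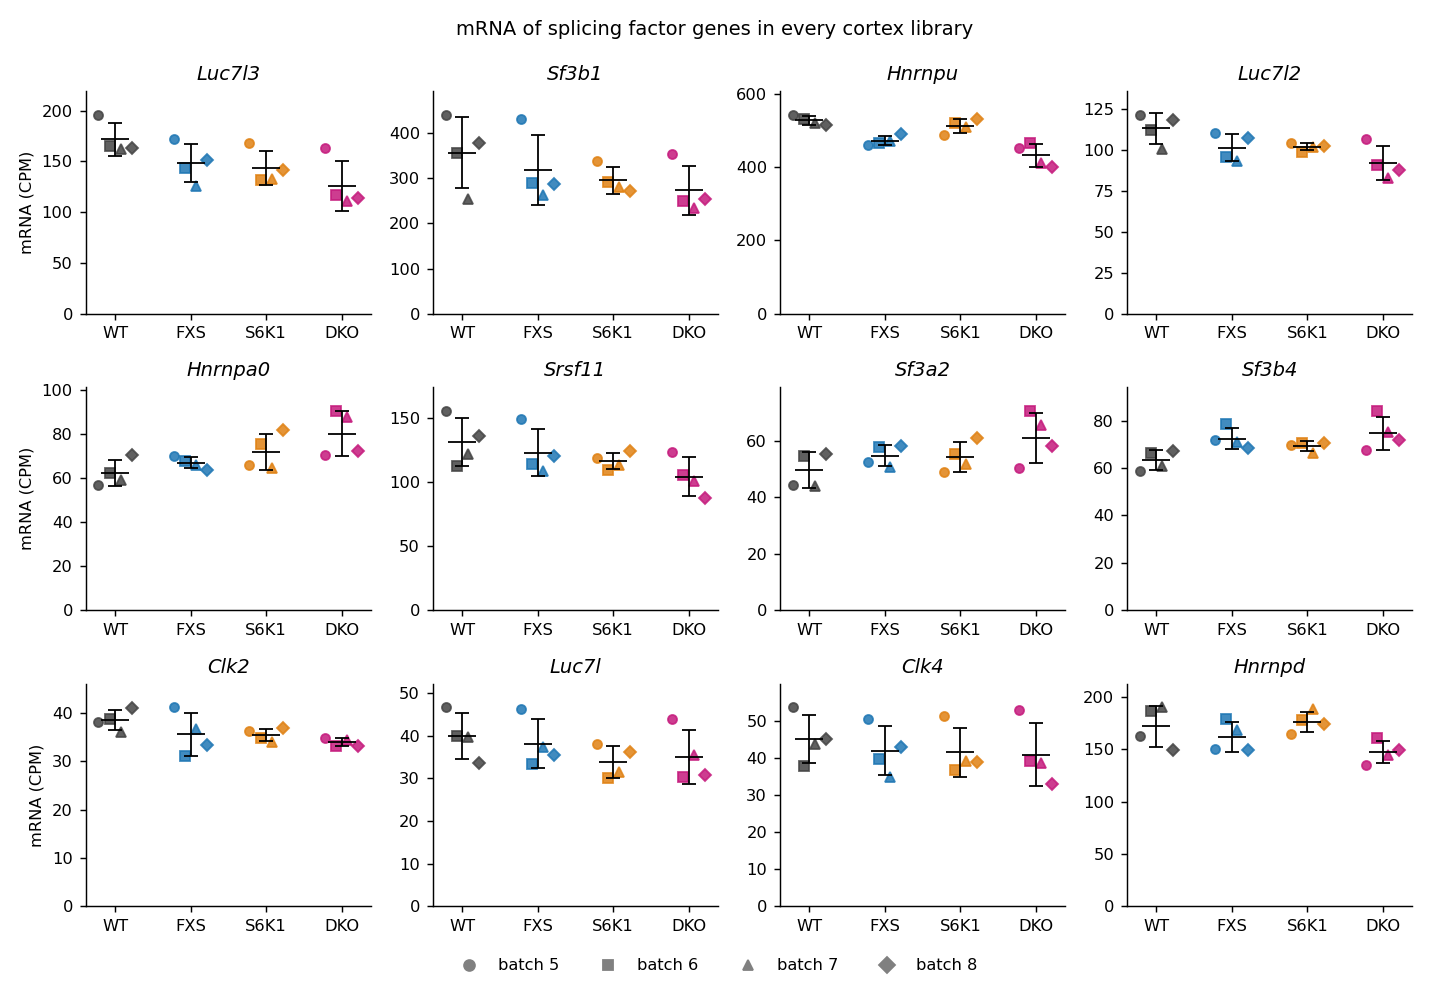
mRNA level (CPM, linear axis from 0) of 12 splicing factor genes in every library, by genotype on the horizontal axis. Points are libraries, with the marker shape giving the batch, and bars are mean ± SD. Luc7l3 falls from a mean of 172 CPM in WT to 126 in DKO while its batch 5 libraries stand highest in each genotype.

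Within batches, DKO was below WT in 4 of 4 batches for Luc7l3, Luc7l2, Sf3b1, Hnrnpu and Srsf11, and above WT in 4 of 4 for Hnrnpa0, Sf3a2 and Sf3b4. These 8 were called by a test on the same libraries with batch in the model, so their equal signs are no further support. Members that were not called, such as Hnrnpr (below) and Sf3b2 (above), also kept 1 sign in 4 of 4 batches. The Luc7l3 differences were -0.26, -0.50, -0.54 and -0.53 on the log2 scale in batches 5 to 8, and those of Hnrnpa0 were 0.31, 0.54, 0.57 and 0.03, the last close to 0. Without the batch term 0 of the 47 genes passed, and without the 4 libraries of batch 5 the count was 6, with 1 higher. Over all genes the calls were 743 in the main fit, 2 without the batch term and 480 without batch 5. The members' count fell to 2 without WT replicate 2 or DKO replicate 3, 3 without WT replicate 3, 4 without WT replicate 1 and 5 without DKO replicate 2, each time with 0 members higher. Calls over all genes fell as well, to 71, 100, 161, 362 and 302 in the same order of libraries. Luc7l3 was called in all 8 fits that left out 1 WT or DKO library, with a highest adjusted p of 0.0143. Sf3b1 missed the threshold in 1 of the 8 (adjusted p = 0.0685 without WT replicate 2), Luc7l2 in 2 (up to 0.0691, without WT replicate 2), Hnrnpu in 3 (up to 0.064, without DKO replicate 3) and Srsf11 in 4 (up to 0.0708, without DKO replicate 4). Hnrnpa0 and Sf3a2 each missed it in 5 (up to 0.115 and 0.181, both without DKO replicate 3), and Sf3b4 in 7 (up to 0.167, without WT replicate 2), so the 3 higher genes missed it most often. Leaving out 1 FXS or S6K1 library, which enter the same model, gave 7 to 10 calls.

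**Figure D2:**
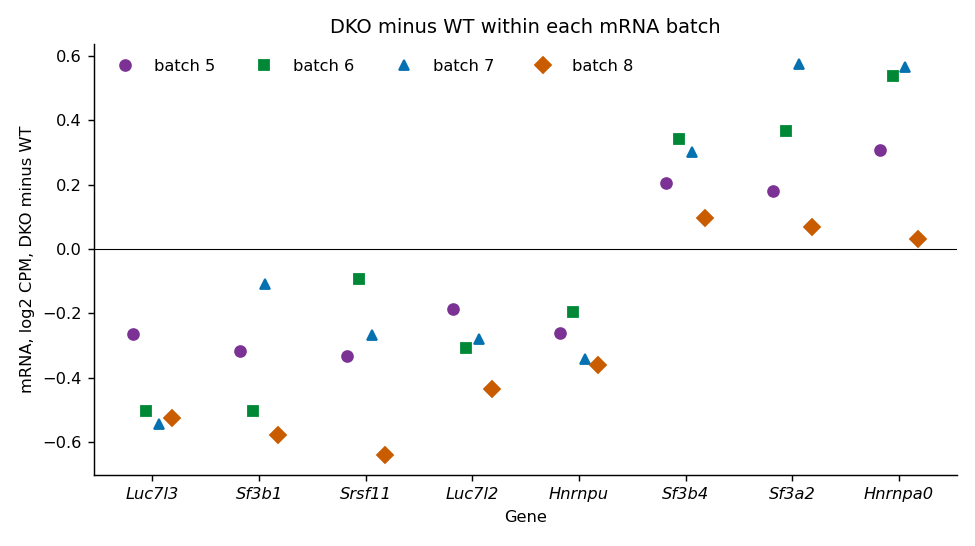
Difference in mRNA level (log2 CPM, DKO minus WT) within each of the 4 mRNA batches for the 8 genes called from these same libraries, ordered by log2 fold change. Each point is 1 DKO library against the WT library of the same batch; the 5 genes on the left lie below 0 and the 3 on the right above 0 in 4 of 4 batches.

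The 8 called genes also differed in span. In the RefSeq annotation the 5 lowered genes span 17.8 to 58.6 kb (median 31.3 kb) and the 3 raised genes 2.68 to 6.19 kb (median 5.06 kb). Over all 47 members the median span was 13.7 kb, with a range of 0.734 to 58.6 kb. Among all genes tested the median span was 25.2 kb, and it was 30.3 kb for the 293 genes called lower and 22.7 kb for the 450 called higher. With 8 genes this is a description.

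In footprints, no splicing factor gene passed the test in DKO against WT (edgeR), beside 0.366% of all 13953 genes (0.0287% higher and 0.337% lower). At an unadjusted p under 0.05 there were 8 of 47 genes, 17%, beside 17.1% of all genes. DESeq2 called 3, Luc7l and Clk4 higher and Srsf5 lower, beside 2.08% of all genes with DESeq2, and limma voom called 0, beside 0.33%. With edgeR, leaving out any of the 7 WT and DKO libraries gave 0 calls, and leaving out FXS replicate 1 or FXS replicate 3 gave 2. The median log2 fold change over the 47 genes was 0.10, beside -0.01 over all genes, with 34 above and 13 below 0. S6K1 against WT had the same median of 0.10, beside -0.02 over all genes, with 33 above and 14 below 0. FXS against WT had -0.01, with 21 above and 26 below 0, and DKO against S6K1 had 0.01. The shift was thus not particular to DKO. In DKO, all 3 Luc7l genes, all 4 CLK genes and 18 of 20 hnRNP genes were above 0, while 4 of 11 SR and 5 of 9 SF3 genes were. For hnRNP genes the difference of DKO from WT was higher in batch 3 than in batch 4, except in Hnrnpa0, Hnrnpdl and Hnrnpl. On the log2 scale Hnrnph3 had 1.02 and 0.07 in these batches, Hnrnpf 0.59 and 0.08, and Hnrnpm 0.55 and -0.02. Hnrnpdl had -0.31 and 0.12. Each batch 3 value is 1 DKO library against 1 WT library.

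Footprint libraries are listed with WT in batches 2, 3, 4 and 4 and DKO in batches 1, 3 and 4. Luc7l footprints were 87.6, 82, 99.3 and 94.3 CPM in WT and 102, 118 and 130.2 CPM in DKO. Every DKO library was above every WT library, with a fitted log2 fold change of 0.42 ± 0.0864 (SE, adjusted p = 0.0525), the smallest adjusted p of the 47 genes. For Luc7l2 the values were 93.5, 97.5, 107 and 87 CPM in WT and 126, 127 and 124 CPM in DKO, again without overlap, with a log2 fold change of 0.29 ± 0.0924 (SE, adjusted p = 0.155). Luc7l3 had 71.9, 80.9, 104 and 79.6 CPM in WT and 103, 103 and 107 CPM in DKO. The highest WT library of Luc7l3 reached the DKO level, and its log2 fold change was 0.21 ± 0.103 (SE, adjusted p = 0.303). Lower mRNA of Luc7l3 and Luc7l2 thus stood beside footprint values above 0 that were not called.

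Clk4 had the highest footprint fold change of the members. Its footprints were 10.1, 11.3, 13.7 and 17 CPM in WT and 16.5, 21.9 and 26 CPM in DKO, and the lowest DKO library lay just inside the WT range. The fitted log2 fold change was 0.71 ± 0.184 (SE, adjusted p = 0.11). Clk2, by contrast, had 23.4, 25.7, 28 and 21.5 CPM in WT and 21.9, 24.7 and 25.7 CPM in DKO and a log2 fold change of 0.06 ± 0.11 (SE, adjusted p = 0.794). Srsf10, an SR protein gene known for repressing splicing when dephosphorylated, had 61.3, 55.5, 80.5 and 66 CPM in WT and 91.1, 108 and 89.1 CPM in DKO. Its groups did not overlap and its log2 fold change was 0.45 ± 0.158 (SE, adjusted p = 0.195).

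Srsf5 and Hnrnpa0, the 2 genes with a pyrimidine run at the RefSeq start, had footprint fold changes below 0, and neither was called. Srsf5 footprints were 164, 172, 215 and 171 CPM in WT and 222, 133 and 121 CPM in DKO, and the DKO library of batch 1 was the highest of all 7. The S6K1 libraries of batches 1, 2 and 3 had 269, 128 and 115 CPM, so both batch 1 libraries stood high. The fitted log2 fold change, with batch in the model, was -0.56 ± 0.129 (SE, adjusted p = 0.0783). Hnrnpa0 footprints were 161, 171, 186 and 224 CPM in WT and 53.7, 57.2 and 204 CPM in DKO. Libraries split widely inside 3 genotypes: S6K1 had 55.4, 162 and 116 CPM, and FXS, in batches 2, 2, 3, 4 and 4, had 172, 151, 58.5, 218 and 208. The difference of DKO from WT was -1.58 on the log2 scale in batch 3 and 0.00 in batch 4, and the fitted value was -0.52 ± 0.321 (SE, adjusted p = 0.425). With DKO replicate 3 left out it was -0.81, and with WT replicate 2 left out -0.0661. Hnrnpd also stood high in batch 1, at 321 CPM in DKO and 285 in S6K1, against 195 to 206 CPM in WT. The split of Hnrnpa0 recurred in Srsf2, which has no such run at its start. Srsf2 footprints were 64 to 95.5 CPM in WT, and 21.5, 31.8 and 96.1 CPM in DKO. They were 22.2 CPM in S6K1 replicate 1 and 28.5 in FXS replicate 3. Sf3b5 had 33.6 to 52.3 CPM in WT, and 18.5, 23.2 and 56.4 CPM in DKO. The part of the pyrimidine run in these values was not tested.

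The other genes with lower mRNA were not called in footprints either. Sf3b1 had 470.0, 429, 442 and 445 CPM in WT and 555, 518 and 423 CPM in DKO, with a log2 fold change of 0.01 ± 0.0943 (SE, adjusted p = 0.964). Hnrnpu had 898, 749, 811 and 844 CPM in WT and 998, 1033 and 928 CPM in DKO, every DKO library above every WT library, with 0.19 ± 0.0981 (SE, adjusted p = 0.337). Srsf11 had 104, 89, 134 and 108 CPM in WT and 97.7, 104 and 115 in DKO, with -0.01 ± 0.0972 (SE, adjusted p = 0.963). Of the genes with higher mRNA, Sf3a2 had 73.4 to 92.7 CPM in WT and 51.8 to 90.9 CPM in DKO, a log2 fold change of -0.09. Sf3b4 had 79.2 to 112 CPM in WT and 63.3 to 106 CPM in DKO, a log2 fold change of -0.16. The groups overlapped in both. In 9 of the 47 genes every DKO library was above every WT library and in 0 every one was below. The 9 were Hnrnpa1, Hnrnpa3, Hnrnpd, Hnrnph1, Hnrnph2, Hnrnpu, Luc7l, Luc7l2 and Srsf10, and 16.3% of all genes had no overlap in either direction.

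**Figure D3:**
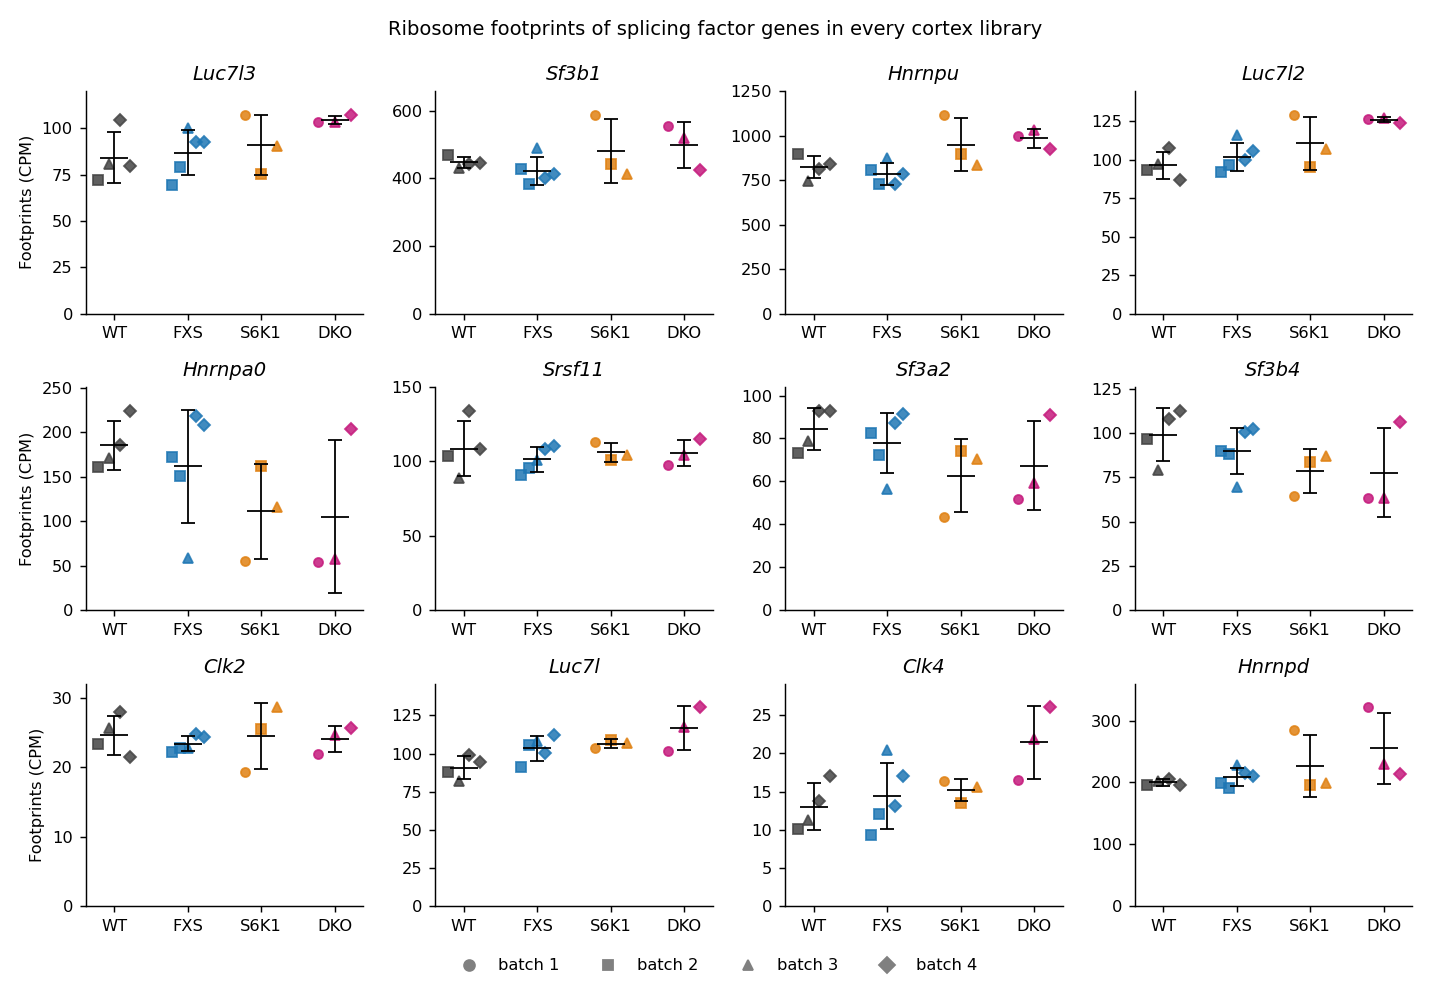
Footprint level (CPM, linear axis from 0) of the same 12 genes in every footprint library, by genotype. Points are libraries, with the marker shape giving the batch, and bars are mean ± SD. Luc7l and Luc7l2 lie higher in all 3 DKO libraries than in the 4 WT libraries, and Hnrnpa0 ranges from 53.7 to 204 CPM inside DKO.

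mRNA and footprint fold changes of DKO against WT had opposite signs in 32 of the 47 genes, 68.1%, beside 57.4% of the 13654 genes tested in both. In 24 of them mRNA was lower and footprints higher, and in 8 the reverse. The mRNA and the footprint values come from different libraries with their own WT controls. Each assay is scaled to its own total, so a fold change is relative to the other genes of that assay.

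**Figure D4:**
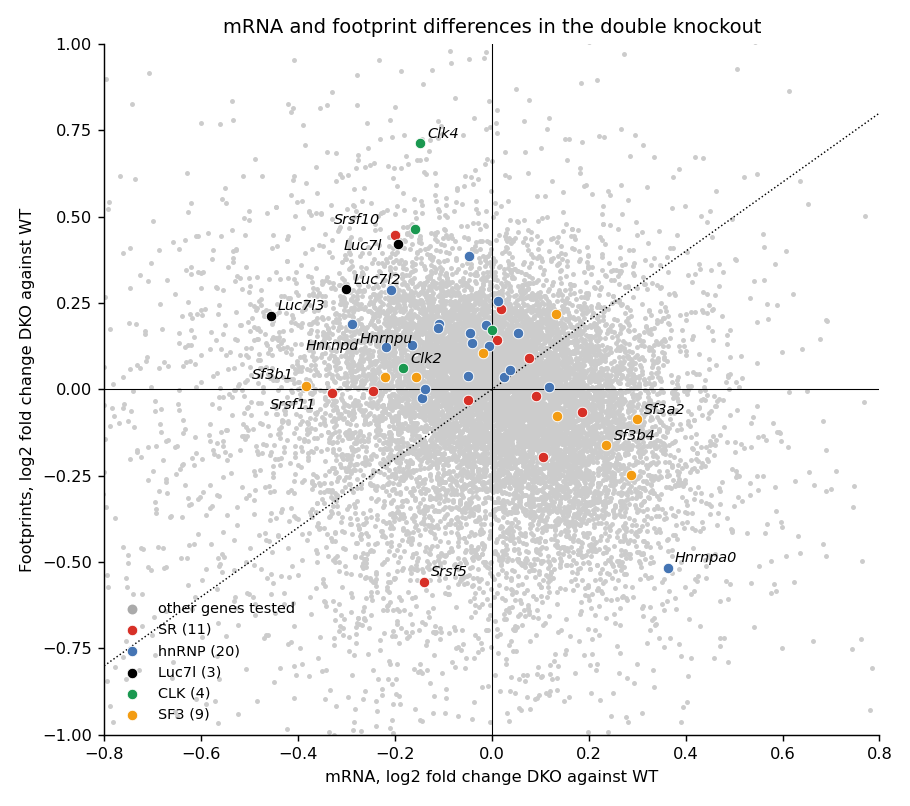
Log2 fold change of DKO against WT in mRNA (horizontal) and in footprints (vertical) for the 47 genes, coloured by family, over the other genes tested in both (grey; genes beyond the axes are not drawn). The dotted line marks equal change; the Luc7l genes lie in the upper left, with mRNA lower and footprints higher, and Hnrnpa0, Sf3a2 and Sf3b4 in the lower right.

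Translational efficiency (TE) is the footprint level of a gene relative to its mRNA level, and its log2 fold change is the footprint contrast minus the mRNA contrast, tested in 1 model over all 31 libraries. In DKO against WT 7 splicing factor genes had higher TE and 1 had lower TE. These 8 are 17% of the members, beside 4.85% of all 13654 genes (1.85% higher and 3.0% lower), a description as in mRNA because earlier results were known. All 3 Luc7l genes were called higher: Luc7l3 by 0.67 ± 0.118 (SE, adjusted p = 0.00808), Luc7l by 0.61 ± 0.12 (SE, adjusted p = 0.0113) and Luc7l2 by 0.59 ± 0.109 (SE, adjusted p = 0.00914). The kinase gene Clk4 rose by 0.86 ± 0.197 (SE, adjusted p = 0.0225) and the SR gene Srsf10 by 0.64 ± 0.185 (SE, adjusted p = 0.0454). Of the hnRNP genes, Hnrnpu rose by 0.47 ± 0.113 (SE, adjusted p = 0.0254) and Hnrnpd by 0.34 ± 0.0939 (SE, adjusted p = 0.0393). Sf3b4 was the gene called lower, at -0.40 ± 0.111 (SE, adjusted p = 0.0399).

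The 7 genes reached a higher TE in different ways. For Luc7l3, Luc7l2 and Hnrnpu the mRNA had been called lower and the footprint value was above 0. For Luc7l and Clk4 neither was called alone, and the footprint values (0.42 and 0.71) were farther from 0 than the mRNA values (-0.19 and -0.15). For Sf3b4 the mRNA had been called higher, with footprints at -0.16. TE is a ratio to mRNA, so for the genes called in mRNA the TE call is not independent of the mRNA call.

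The median TE log2 fold change of the 47 genes was 0.17, beside -0.02 for all genes, and 37 were above 0. By family the medians were 0.01 for SR, 0.18 for hnRNP, 0.61 for Luc7l, 0.43 for CLK and 0.08 for SF3. Among genes that were not called, Hnrnpa0 had the lowest value at -0.88 ± 0.323 (SE, adjusted p = 0.106), followed by Sf3b5 at -0.54 ± 0.235 (SE, adjusted p = 0.157) and Srsf5 at -0.42 ± 0.147 (SE, adjusted p = 0.0837). Sf3b1 stood at 0.39 ± 0.133 (SE, adjusted p = 0.0765), Srsf11 at 0.32 ± 0.131 (SE, adjusted p = 0.134), Sf3a2 at -0.39 ± 0.14 (SE, adjusted p = 0.09) and Clk2 at 0.24 ± 0.131 (SE, adjusted p = 0.25).

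Without the batch term 0 of the 47 genes were called in TE. Without the 2 footprint libraries of batch 1 the same 8 genes were called, and without the 4 mRNA libraries of batch 5 the count was 5, with 0 lower. Among footprint libraries, the count was 0 without DKO replicate 2 and 2 without WT replicate 2, both from batch 3, and 4 without DKO replicate 3. Among mRNA libraries, it was 3 without WT replicate 3, 4 without WT replicate 2 or DKO replicate 3, and 5 without WT replicate 1 or DKO replicate 2. Over the 15 fits that left out 1 WT or DKO library, Luc7l3 and Luc7l2 each missed the threshold in 1 (adjusted p = 0.0547 and 0.0748 without DKO footprint replicate 2). Luc7l missed it in 2 (up to 0.0748, the same library), Clk4 in 4 (up to 0.108, without WT footprint replicate 2), and Hnrnpu, Sf3b4 and Hnrnpd in 6, 8 and 10 (up to 0.166, 0.233 and 0.17, each without DKO footprint replicate 2). Srsf10 missed it in 10 (up to 0.199, without WT footprint replicate 2). Libraries of the other genotypes enter the same model: the TE count was 5 without S6K1 footprint replicate 2 and 13 without FXS footprint replicate 3, and 7 or 8 without any other FXS or S6K1 library. TE calls over all genes in these fits are not given here. A change in the members' count therefore cannot be told from a change in calls over all genes.

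**Figure D5:**
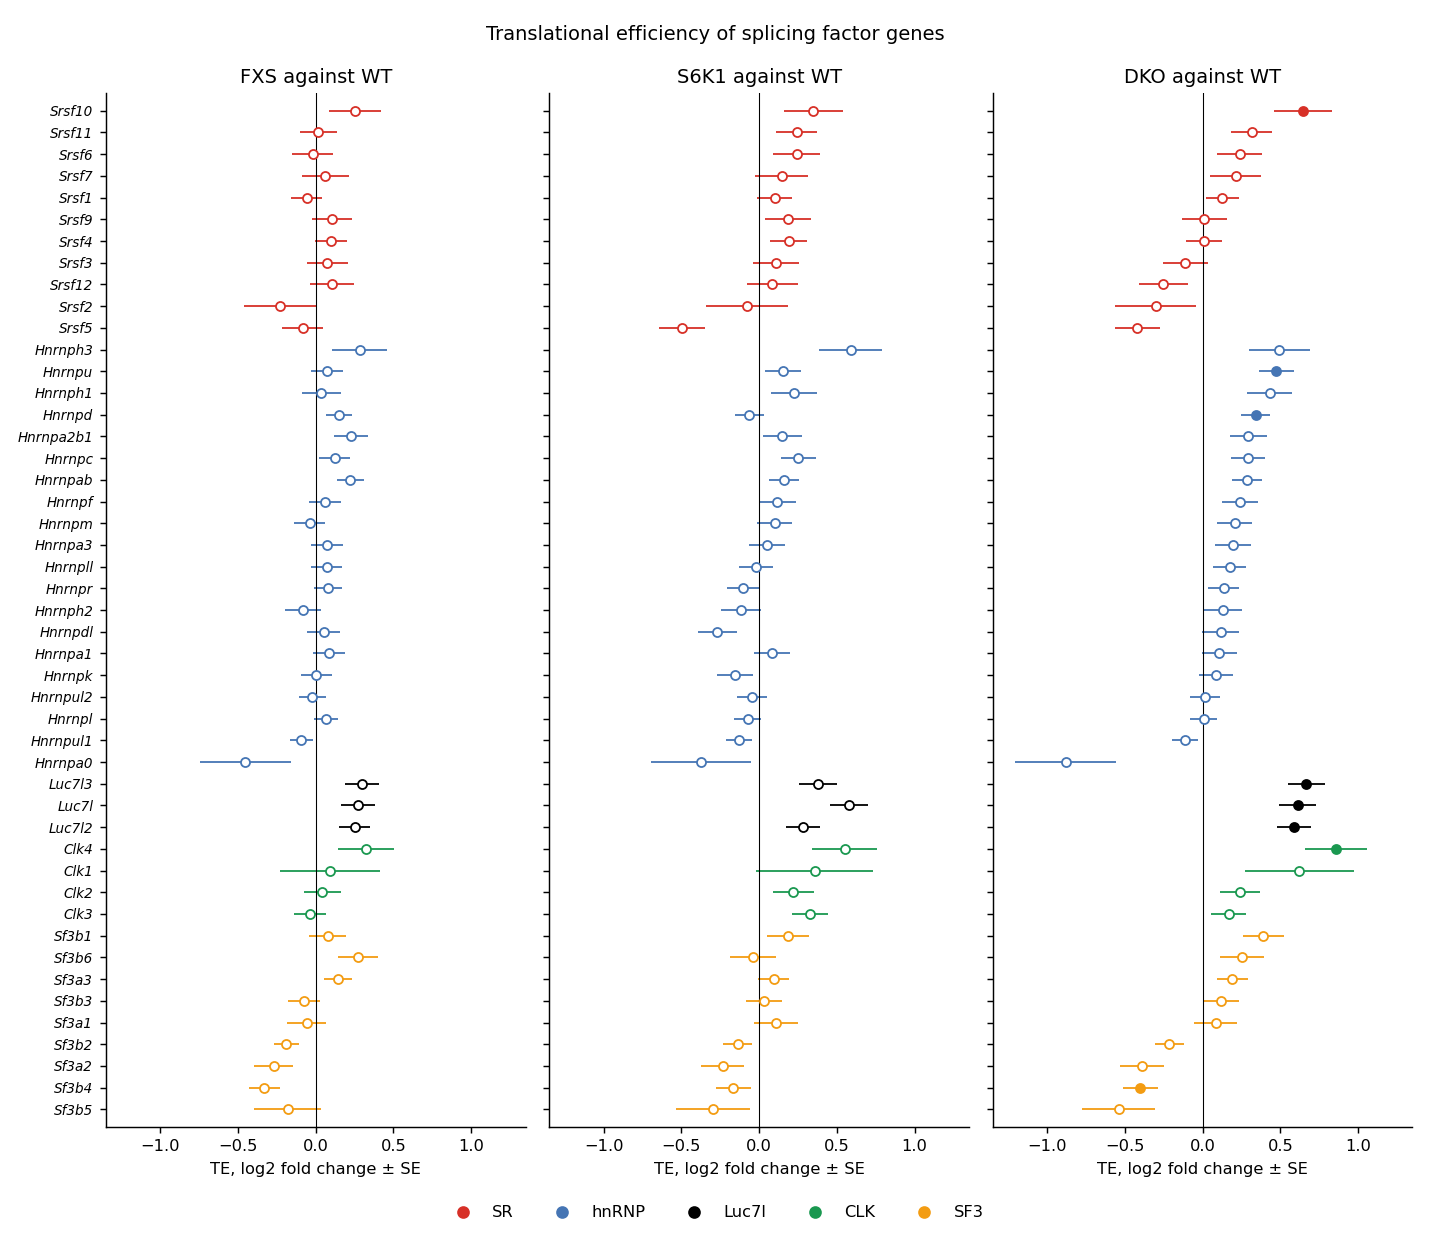
Log2 fold change in TE ± SE of all 47 genes in FXS, S6K1 and DKO against WT, grouped and coloured by family and ordered within it by the DKO value. Filled points are called at an adjusted p under 0.05 in edgeR; 8 points are filled in DKO and 0 in FXS and S6K1. The 3 comparisons share the WT libraries.

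In the single mutants no splicing factor gene was called in any measure with edgeR. For FXS against WT the background was 0.155% of genes in mRNA, 0.165% in footprints and 0.0952% in TE, and for S6K1 against WT it was 0.0211%, 0.00717% and 0.0293%. At an unadjusted p under 0.05, FXS had 10 of 47 genes in mRNA, 1 in footprints and 9 in TE (21.3%, 2.13% and 19.1%), beside 12.7%, 9.87% and 13.4% of all genes. At that level S6K1 had 7, 10 and 9 (14.9%, 21.3% and 19.1%), beside 7.37%, 8.74% and 7.51%. DESeq2 called 0 members in FXS, where its calls over all genes were 1.41% in mRNA, 0.788% in footprints and 0.952% in TE. For S6K1 it called 1, Luc7l in TE, where its calls were 0.0352%, 0.287% and 0.0879%. In mRNA 3 genes had every FXS library on one side of WT (Sf3b4 above, Hnrnph3 and Hnrnpu below), beside 3.34% of all genes, and 0 had every S6K1 library so, beside 1.6%. In footprints the counts were 0 in FXS, beside 1.74%, and 6 in S6K1, beside 9.9%. The 6 were Hnrnpa1, Hnrnph1, Hnrnph3 and Luc7l above WT and Hnrnpl and Hnrnpul1 below. These comparisons and that of DKO share the WT libraries, so their values are given side by side for the genes called in DKO. Luc7l3 mRNA was -0.21 in FXS, -0.26 in S6K1 and -0.46 in DKO on the log2 scale. Sf3b1 mRNA was -0.17, -0.25 and -0.38, and Hnrnpu mRNA was -0.16, -0.04 and -0.29, in the same order. Hnrnpa0 mRNA was 0.11, 0.21 and 0.36. The other 4 genes, in that order, had -0.16, -0.15 and -0.30 for Luc7l2, -0.10, -0.16 and -0.33 for Srsf11, 0.15, 0.13 and 0.30 for Sf3a2, and 0.20, 0.14 and 0.24 for Sf3b4. These 8 were chosen by their call in DKO, which favours larger DKO values, so the order of size is a description.

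For TE, Luc7l was 0.58 ± 0.123 (SE, adjusted p = 0.112) in S6K1, close to its value in DKO, and 0.27 ± 0.109 (SE, adjusted p = 0.295) in FXS. Luc7l3 was 0.30 in FXS and 0.38 in S6K1, and Luc7l2 0.25 and 0.28. Clk4 was 0.33 in FXS and 0.55 in S6K1. Sf3b4 TE was -0.33 ± 0.0994 (SE, adjusted p = 0.184) in FXS and -0.17 in S6K1, and Srsf5 TE was -0.08 and -0.50 ± 0.151 (SE, adjusted p = 0.426). Over the 47 genes the median TE log2 fold change was 0.06 in FXS, with 31 above 0, and 0.10 in S6K1, with 30 above 0. Over all genes these medians were -0.01 and -0.02. In mRNA the median of the 47 was -0.07 in FXS, with 11 above and 36 below 0. It was 0.04 in S6K1, with 32 above and 15 below 0.

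Whether a deficiency in both genes differs from the sum of the single mutants was tested by the interaction, DKO minus S6K1 against FXS minus WT. No splicing factor gene was called in mRNA, footprints or TE (edgeR), and the background was 0.0% of genes in each. At an unadjusted p under 0.05 the counts were 0, 0 and 1 of 47, beside 3.5%, 3.07% and 4.14% of all genes. For Luc7l3 the interaction was 0.02 ± 0.0927 (SE) in mRNA and -0.01 ± 0.162 in TE. For Hnrnpu it was -0.08 ± 0.0888 in mRNA and 0.25 ± 0.155 in TE.

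DKO against each single mutant gave no call with edgeR either. Against FXS the background was 0.0281% of genes in mRNA, 0.0143% in footprints and 0.0146% in TE, and against S6K1 it was 0.387%, 0.00717% and 0.00732%. At an unadjusted p under 0.05, 9, 9 and 12 of 47 genes differed from FXS (19.1%, 19.1% and 25.5%), beside 9.81%, 6.19% and 8.36% of all genes. From S6K1 17, 1 and 9 genes differed at that level (36.2%, 2.13% and 19.1%), beside 14.8%, 8.67% and 14.6%. The smallest adjusted p-values against S6K1 belonged to mRNA of hnRNP genes: Hnrnpr at -0.26 ± 0.0621 (SE, adjusted p = 0.0554), Hnrnpd at -0.26 ± 0.0653 (SE, adjusted p = 0.0587) and Hnrnpu at -0.25 ± 0.0628 (SE, adjusted p = 0.0621). DESeq2 called these 3 genes lower in mRNA of that comparison, beside 2.48% of all genes, and Hnrnpd higher in TE, beside 0.176%.

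In WT cortex the ratio of footprint to mRNA CPM ranged widely over these genes. The median log2 ratio was 0.35 over the 47 genes and -0.32 over all 13654 genes tested, and 34 of the 47 lay above that median. By family the medians were 0.64 for SF3, 0.35 for hnRNP, -0.24 for Luc7l, -0.28 for SR and -1.47 for CLK. The lowest ratios were those of Srsf9 at -1.98 ± 0.116, Clk4 at -1.81 ± 0.196 and Clk1 at -1.78 ± 0.337, and the highest those of Hnrnpa0 at 1.57 ± 0.123, Srsf3 at 1.51 ± 0.109 and Sf3b3 at 1.22 ± 0.0783. Within these trios neighbours overlapped in their standard errors, except Srsf3 and Sf3b3. In Luc7l the ratio was 1.19 ± 0.114 while in Luc7l2 it was -0.24 ± 0.0877 and in Luc7l3 -1.04 ± 0.131, so paralogs that all rose in TE in DKO started from different levels. Both count tables are named as coding-region counts. How reads were assigned is not given in the sources used here, and the ratios carry that limit.

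Across genotypes the WT ratio of Luc7l3 of -1.04 became -0.78 ± 0.132 in FXS, -0.67 ± 0.168 in S6K1 and -0.25 ± 0.132 in DKO. Clk4 went from -1.81 in WT to -0.93 ± 0.239 in DKO. Hnrnpa0, at 1.57 in WT, stood at 0.50 ± 0.464 in S6K1 and 0.10 ± 0.634 in DKO, with the wide errors of its footprint libraries. These ratios are means over libraries without the batch term.

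Other splicing genes were followed in 7 lists with 165 genes, all tested: U1 partners, Sm and U2 genes, tri-snRNP genes, SR-related and speckle genes, kinases and phosphatases of SR proteins, neuronal and tissue regulators, and exon junction genes. The exon junction list also holds the Upf and Smg genes of nonsense-mediated decay. The lists were chosen with earlier results of these data known, so their shares beside the background are a description. In mRNA of DKO against WT 17 were called lower and 5 higher (10.3% and 3.03%), beside 2.06% and 3.17% of all genes, so the higher count was near the background. In footprints 0 were called. In TE 11 were higher and 3 lower (6.67% and 1.82%), beside 1.85% and 3.0%. Of the 36 SR-related and nuclear speckle genes, 8 were lower in mRNA and 0 higher (Arglu1, Ccnl1, Ccnl2, Nktr, Pnisr, Pnn, Rbm39 and Srek1), with a list median of -0.11. In TE 7 of the 36 were higher and 0 lower, with a median of 0.21. Ccnl1, a cyclin of speckles that binds CDK11, had a log2 fold change of -0.51 ± 0.0792 (SE, adjusted p = 0.00231) in mRNA and 0.53 ± 0.157 (SE, adjusted p = 0.0486) in TE. Pnn, which encodes the speckle protein pinin, had -0.28 ± 0.0643 (SE, adjusted p = 0.0147) in mRNA and 0.61 ± 0.118 (SE, adjusted p = 0.0113) in TE. Footprints were at 0.02 (adjusted p = 0.952) for Ccnl1 and 0.33 (adjusted p = 0.153) for Pnn, neither called. The higher TE of Ccnl1 thus mirrors its lower mRNA. As for the members, a TE call of a list gene called in mRNA is not independent of the mRNA call.

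Of 11 genes for U1 snRNP proteins and partners of the Luc7l family, 3 were lower in mRNA and 0 higher. Prpf39, which encodes a U1-associated factor, had -0.53 ± 0.104 (SE, adjusted p = 0.008) in mRNA and 0.84 ± 0.184 (SE, adjusted p = 0.019) in TE, Rbm25 had -0.29 ± 0.0657 (SE, adjusted p = 0.0144) in mRNA, and Snrnp70, the U1 70K protein gene, had -0.29 ± 0.0814 (SE, adjusted p = 0.0421). In TE 2 of the 11 were higher (Prpf39 and Tia1) and 1 lower (Snrpc). Of 18 Sm and U2 genes 2 were lower in mRNA, Dhx15 at -0.24 ± 0.0598 (SE, adjusted p = 0.0226) and Snrpa1 at -0.27 ± 0.0749 (SE, adjusted p = 0.0389). The tri-snRNP list had 1 lower of 27 (Cwc22, -0.34 ± 0.0791 (SE, adjusted p = 0.016)), the kinase list 1 lower of 15 (Prpf4b, -0.30 ± 0.0717 (SE, adjusted p = 0.0185)) and the exon junction list 1 lower of 13 (Smg1, -0.41 ± 0.0709 (SE, adjusted p = 0.00343)). Smg1 is a gene of nonsense-mediated decay, and the other 12 of that list were not called in mRNA. In TE the kinase list had 2 higher, Prpf4b and Top1, and the Sm and U2, tri-snRNP and exon junction lists had 0.

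The 45 neuronal and tissue-specific regulators had 5 genes higher in mRNA (Celf3, Celf4, Celf5, Nova2 and Pcbp4) and 1 lower, the RNA helicase gene Ddx5. Celf5 had 0.46 ± 0.0871 (SE, adjusted p = 0.00688) in mRNA and -0.61 ± 0.176 (SE, adjusted p = 0.0452) in TE, and Celf4 0.34 ± 0.0681 (SE, adjusted p = 0.00873) in mRNA; both encode CUG-binding regulators of neuronal splicing. Nova2, which encodes a neuronal splicing regulator, had 0.38 ± 0.101 (SE, adjusted p = 0.0313) in mRNA. In TE 2 of the 45 were lower, Celf5 and Pcbp4, and 0 higher. The summed neuronal markers overlapped between WT and DKO mRNA, with 2 of 8 called higher as given above, and their part in these values was not tested.

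In the authors' deposited tables, at an adjusted p under 0.05, 10 of the 47 genes differed in mRNA of DKO against WT, beside 8.12% of the 12876 genes listed there. The authors' deposited table has Hnrnpa0, Sf3a2 and Sf3b4 higher and Luc7l3, Sf3b1, Hnrnpu, Luc7l2, Srsf11, Hnrnpd and Srsf6 lower. For footprints of DKO against WT the authors' deposited table has Clk4 and Luc7l higher and Srsf5 lower, beside 2.47% of 12083 genes called. In the authors' deposited table for TE of DKO against WT, 2 were called, Hnrnpu and Luc7l2, both higher, beside 0.725% of 12004 genes. The authors' deposited tables of FXS against WT have 0 of the 47 genes in mRNA, footprints and TE, beside 1.45%, 1.07% and 0.0167% of genes, and in mRNA 2 of the 47 have no adjusted p.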

How the data were processed

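Ribosome footprints and polyadenylated mRNA were sequenced from mouse cortex. The authors deposited raw counts per gene symbol for both assays, in tables named as coding-region counts. The submitters' processing notes name mm10, cutadapt 2.0, Bowtie2, TopHat2 and RSEM, with no further settings, and whether the whole-number counts are rounded RSEM estimates is not given in the sources used here. The authors also deposited tables of their own comparisons with base means (normalised signal), log2 fold changes, test scores and p-values, from which only log2 fold changes and adjusted p-values were read.

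Counts were scaled by TMM within each assay and shown as CPM over the genes that passed filterByExpr by genotype (edgeR 4.0.16, R 4.3.3). edgeR's robust quasi-likelihood test was fitted over all genes and all genotypes of an assay, with batch as a term (nested in assay for TE), and adjusted by Benjamini-Hochberg over all genes. A SE is the absolute log2 fold change over the square root of F. The scripts were tested on simulated data without batch differences. A 1.35-fold change of DKO from WT was recovered in 84% of changed genes in mRNA, 34% in footprints and 4% in TE. A 2-fold change was recovered in 98.5%, 99% and 98%. A missing call in footprints or TE therefore does not show that a gene was unchanged.

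The batch numbers of the labels pair libraries across genotypes. Deviations from genotype means correlated at a median r of 0.27 over 24 same-batch mRNA pairs (-0.14 over 72 different-batch pairs) and 0.30 over 20 same-batch footprint pairs (-0.10 over 63).

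The member genes and the other gene lists were chosen with earlier results of these data known. Library values are given for the 8 members with the smallest adjusted p in mRNA of DKO against WT, the smallest of each family there, and up to 6 called in footprints or TE. Other members are named where called or extreme in their family, and the other lists give up to 4 genes by mRNA adjusted p. Srsf5 and Srsf10 library values, the remaining called genes of the lists, and the gene spans and start runs were added after their values were seen. Alternatives were RLE scaling, no filter, DESeq2 1.42.0, limma voom 3.58.1, no batch term, only the genotypes compared, each library left out, no mRNA batch 5 and, added after seeing the data, no footprint batch 1 and each library of a genotype outside the comparison left out. Promoter sequences are from RefSeq (GRCm38.p6, the assembly of mm10), and 6 of the 47 genes had no entry.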

Additional observations from a re-analysis of the deposited data

Results flagged for a closer look

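For 12 named genes, 72 groups of 4 or 5 libraries (1 gene, assay and genotype each) were examined. In 5 of them 1 library stood far from the rest by Dixon's criterion at the 95% level. Chance flags about 1 in 20 groups. All 5 were mRNA libraries of batch 5, and in each the batch 5 library was the highest. Luc7l3 mRNA was 195.9 CPM in WT replicate 1, against 162 to 165 CPM in the other WT libraries, and 163 CPM in DKO replicate 1, against 111 to 117 CPM in the other DKO libraries. Sf3b1 mRNA was 432 CPM in FXS replicate 1, against 263 to 290 CPM, and 354 CPM in DKO replicate 1, against 235 to 254 CPM. Clk4 mRNA was 51.2 CPM in S6K1 replicate 1, against 36.6 to 39 CPM. Over all 47 genes, batch 5 was higher than the mean of batches 6 to 8 in all 4 genotypes for 16 genes, lower in all 4 for 15 and mixed for 16. The batch holds every genotype once, so it does not line up with 1 genotype.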

How the results depend on the processing

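The batch term acts as the replicate block that pairs libraries; without it 0 members were called in mRNA and 0 in TE of DKO against WT, where 8 and 8 had been. Leaving out 1 WT or DKO library moved those counts between 2 and 9 in mRNA and between 0 and 12 in TE. Over all genes, mRNA calls of DKO against WT moved too: 743 in the main fit, 2 without the batch term and 71 to 1093 without 1 WT or DKO library. Leaving out 1 FXS or S6K1 library, chosen after seeing the data, gave 7 to 10 in mRNA and 5 to 13 in TE. The TE calls over all genes in these fits are not given here. The TE count of S6K1 against WT lay between 0 and 1 without 1 of its own libraries (1 without mRNA S6K1 replicate 4). Without mRNA batch 5 the TE count was 5. DESeq2 called 3 members in footprints of DKO against WT, 3 in mRNA of DKO against S6K1, 1 in TE of S6K1 against WT and 1 in TE of DKO against S6K1. With RLE factors or no filter 1 was called in footprints of DKO against WT. Over all genes the RLE fit called 50 of 13953 there and the fit without the filter 60 of 17412. With only the 2 genotypes in the fit 1 member, Luc7l3, was called lower in mRNA of FXS against WT, beside 446 of all 13933 genes called in that fit. The cause of these moves was not tested. All 8 mRNA calls were kept with RLE factors, DESeq2 and limma voom, and all 8 TE calls with these and without footprint batch 1.

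Footprint values near 0 changed sign: Srsf11 to 0.0929 with only the 2 genotypes in the fit and 0.0371 without footprint batch 1, and Clk2 to -0.0339 without the batch term. With 1 WT or DKO library left out, Sf3b1 ran from -0.0866 to 0.066, Srsf11 from -0.11 to 0.0636 and Sf3a2 from -0.14 to 0.0331. The members' median in footprints was 0.16 without the batch term, 0.15 with 2 genotypes and 0.04 without WT footprint replicate 2. In TE it was 0.27, 0.23 and 0.11 under the same alternatives. DKO and WT meet in 2 footprint batches, which limits the precision of the footprint and TE comparisons. Every member passed the filter on low counts in both assays.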
